A study of Mus musculus with 12 samples.

Results

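The changes described here are those that 2 ligands of the ROR receptors, SR3335 and SR1078, had in common in cultured mouse Kupffer cells. They rest on 4 of the 12 Illumina bead arrays of the series, 2 with SR3335 and 2 with SR1078, which were set against the 2 vehicle arrays. A probe was counted as separated when all 4 compound arrays lay above both vehicle arrays, or all 4 below both, and when its detection p was under 0.05 on at least 2 of these 6 arrays. Kupffer cells are macrophages that live in the sinusoids of the liver. They came from male C57BL/6 mice aged 8 weeks, were isolated by collagenase perfusion and a Percoll gradient, and were plated in RPMI medium with 10% serum. The cultures received DMSO (vehicle), SR3335 at a labelled dose of 10 mM, or SR1078 at a labelled dose of 5 mM, each for 24 h. The dose unit is the one in the labels and could not be checked in the files. The other 6 arrays held cells with no named treatment (M0), with LPS at 10 ng/ml and with IL-4 at 20 ng/ml. The labels do not state that paired arrays stem from different animals or cultures. A p-value here reflects just the array-to-array spread, which may be technical, and the number of arrays limits the precision.

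RORs are nuclear receptors that bind DNA as monomers at the half-site AGGTCA, and they are best known for the circadian clock, lipid metabolism and the differentiation of lymphoid cells. SR3335 is described as an inverse agonist of ROR-alpha and SR1078 as an agonist of RORs, which are opposite actions. Many of the genes below belong to the hypoxia response, in which the transcription factor HIF binds short ACGTG or GCGTG cores and raises glucose transporters, glycolytic enzymes and its own inhibitors. Glycolytic genes are also known to rise when macrophages are activated by bacterial products.

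Of 12918 probes measured, 1618 (12.5%) were separated above the vehicle arrays and 1716 (13.3%) below them. These represented 1185 and 1222 of the 8959 genes with a symbol. Most separations were small: the median difference was 0.253 log2 above and -0.231 below, and the median gap between the nearest compound and vehicle arrays was 0.0784 and 0.0691. The gap exceeded the difference between the 2 vehicle arrays for 876 probes above and 906 below. Only 113 probes above and 54 below differed by at least 1.5-fold, and 7 and 2 by at least 2-fold. Since the same 2 vehicle arrays served both compounds, an unusual vehicle level would move both comparisons together, and the counts are a description. The median difference between the 2 vehicle arrays was 0.0648 log2 for separated probes and 0.0973 for all probes. At the edge of the detection rule, 476 probes were detected on exactly 2 arrays, of which 32 lay above and 26 below, with median differences of 0.349 and -0.43 log2. Among 739 probes detected on 1 array, just outside it, 61 lay above and 57 below, with medians of 0.349 and -0.369.

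A linear model (limma, fitted over all 12918 probes) tested the mean of the compounds' group means against vehicle. At an adjusted p under 0.05, 204 probes (1.58%) were higher and 123 (0.952%) lower, and 193 and 116 of these were also separated. The median standard error was 0.083 log2. In the same model SR3335 minus vehicle gave 360 higher (2.79%) and 328 lower probes (2.54%), and SR1078 minus vehicle gave 107 higher (0.828%) and 29 lower (0.224%). These 2 comparisons share their control arrays and the labelled doses differ, so the compounds' values are given side by side and were not tested against each other. The calls rest on every array: without any 1 of the 6 arrays limma called 0 probes for both compounds together, with 1740 to 2523 at an unadjusted p under 0.05.

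Replicate arrays correlated at 0.9957 to 0.9962 and arrays of different groups at 0.9911 to 0.9937, and 12182 to 12623 probes were detected per array. The cells were checked against the labelled cell type: of 21 Kupffer cell markers on the array 19 were detected, among them Clec4f, Vsig4, Timd4 and Adgre1, whereas Cd163 and Cd5l were not detected. A lower signal in these bulk samples can mean fewer cells of a type or less RNA per cell, which cannot be told apart.

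Of the 27 gene lists described here, hypoxia response and glycolysis had the highest shares of separated genes. Of 21 measured hypoxia response genes, from a list of 27, 15 were separated above vehicle and 0 below, against 13.2% and 13.6% of all genes. The test was passed by 10, all of them higher, and the list's median difference was 0.45 log2, against -0.002 for all genes. The list's median was 0.45 for SR3335 and 0.51 for SR1078. Mgarp, Ak4 and Pfkl were given with the rule that defined the arrays, so the lists that hold them are not independent evidence of a direction.

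Mgarp encodes a mitochondrial protein that HIF induces and that takes part in mitochondrial transport. Its log2 signal was 6.93 and 7.24 in the vehicle arrays, 8.70 and 8.68 with SR3335, and 8.60 and 8.61 with SR1078. The compound arrays lay above both vehicle arrays with no overlap, and Mgarp had the largest rise of all named genes, 1.56 ± 0.10 log2 (SE; 2.94-fold; limma adjusted p = 0.0144). The difference was 1.60 for SR3335 and 1.52 for SR1078. Ak4, an adenylate kinase of the mitochondrial matrix, had log2 signals of 6.18 and 6.14 with vehicle, 7.45 and 7.58 with SR3335, and 7.38 and 7.59 with SR1078. It rose by 1.34 ± 0.08 (2.53-fold; adjusted p = 0.0144), 1.35 with SR3335 and 1.32 with SR1078.

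Egln3 encodes a prolyl hydroxylase that marks HIF for degradation and is itself a HIF target. Its log2 signals were 7.27 and 7.33 with vehicle, 8.26 and 8.25 with SR3335, and 8.41 and 8.39 with SR1078. Egln3 rose by 1.03 ± 0.06 (adjusted p = 0.0144), and the replicates of each group lay close together. Ndrg1, a stress-induced gene, gave 9.59 and 9.67 with vehicle, 10.36 and 10.30 with SR3335, and 10.33 and 10.37 with SR1078, a rise of 0.71 ± 0.06 (adjusted p = 0.0226). A second Ndrg1 probe rose by 0.91. Mxi1, a partner of MAX that opposes MYC, was not well above background on either vehicle array and was detected on all 4 compound arrays. It was at least 1.55-fold higher with the compounds, at measured log2 signals of 5.46 and 5.10 with vehicle, 6.27 and 6.20 with SR3335, and 6.10 and 6.58 with SR1078. Its probe met the detection filter through the compound arrays alone, so it had to differ, and no p is given for it. Mxi1 is nonetheless 1 of the 15 genes above vehicle, of the 10 that passed and of the 12 largest rises, and is no support for them. Over genes detected on at least 1 vehicle and 1 compound array, a restriction chosen after seeing the data, 14 of 20 hypoxia response genes lay above vehicle and 0 below, and 9 passed, against 12.7% and 13.9% of all genes above and below. The glycolysis list, which then loses Aldoc, had 12 of 15 above, 0 below and 5 that passed.

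The remaining members that passed are named to complete the list, after their values were seen. Adm, the vasodilator peptide adrenomedullin, rose by 0.70 (adjusted p = 0.0307), by 0.78 with SR3335 and 0.61 with SR1078. Ddit4, an inhibitor of mTORC1, rose by 0.57, and Vegfa, the endothelial growth factor, by 0.50 (adjusted p = 0.036 for each). P4ha1, a prolyl hydroxylase of collagen, rose by 0.45 and Bnip3l, a receptor for mitophagy, by 0.41, both near the threshold (adjusted p = 0.0497 and 0.0491). For SR3335 and SR1078 the differences were 0.52 and 0.62 for Ddit4, 0.45 and 0.55 for Vegfa, 0.51 and 0.39 for P4ha1, and 0.28 and 0.55 for Bnip3l. A further 5 genes were separated above vehicle without passing: P4ha2 at 0.56, Pdk1 at 0.47, Kdm3a at 0.39, Hilpda at 0.28 and Fam162a at 0.27. The arrays overlapped for Vhl, Narf, Hif1a, Arnt, Car9 and Plin2. Hif1a itself, the oxygen-regulated HIF subunit, differed by 0.40 with SR3335 and -0.12 with SR1078, and its partner Arnt by 0.17 and -0.02. Ankrd37, Bnip3, Egln1, Epas1, Ero1a and Higd1a were not measured.

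**Figure D1:**
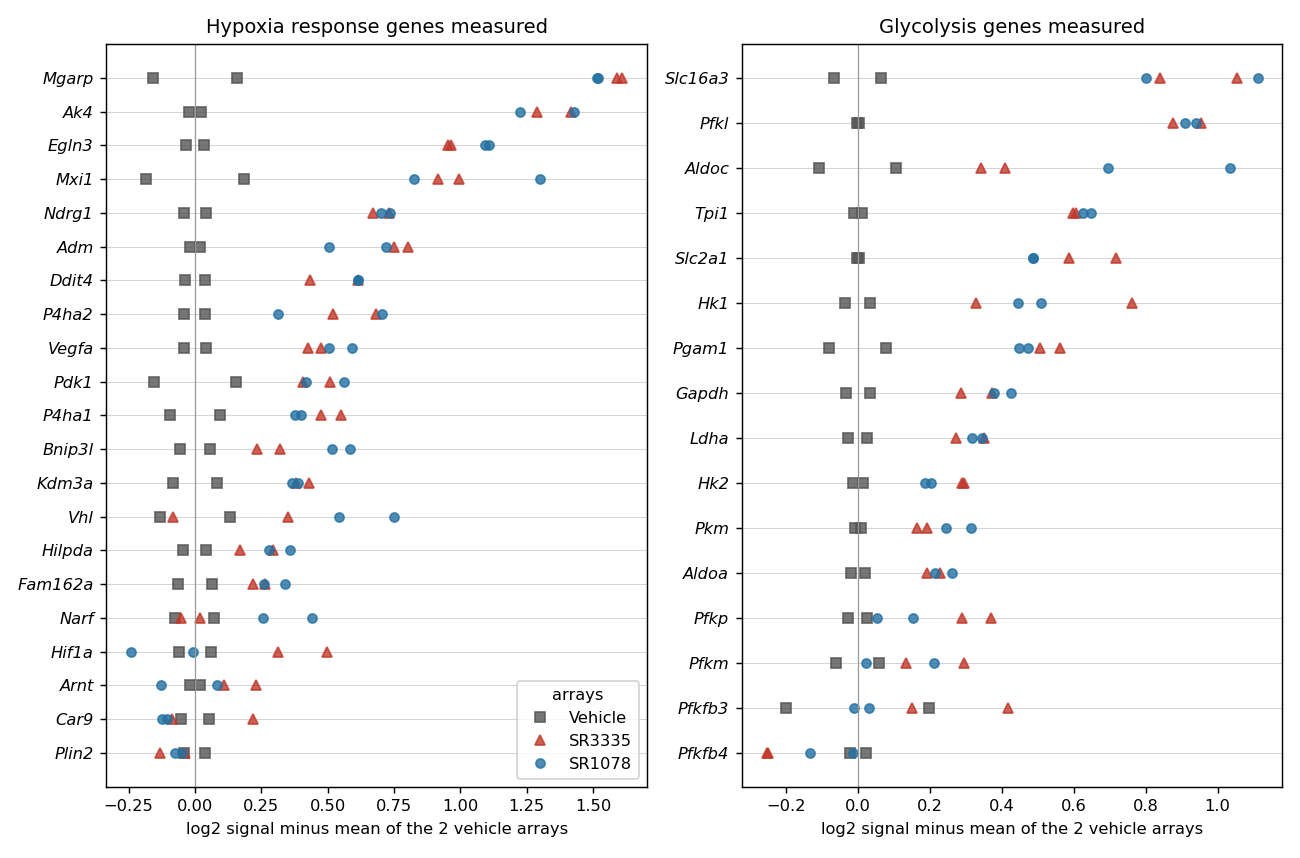
Log2 signal of each array minus the mean of the 2 vehicle arrays (x axis) for the 21 hypoxia response genes (left) and 16 glycolysis genes (right) measured. Squares are vehicle, triangles SR3335 and circles SR1078 arrays, 2 each. The 4 compound arrays lie to the right of both vehicle arrays for 15 and 13 genes, and Mgarp lies farthest to the right. Mxi1 and Aldoc, counted there, were detected on compound arrays alone.

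Glycolysis gave the highest share of separated genes of the 27 lists: 13 of 16 measured members (81.2%) lay above vehicle and 0 below. Aldoc is among the 13, but it met the detection filter through the compound arrays alone, so it had to differ and is no support. Without Aldoc 12 of 15 lay above vehicle. The test was passed by 5, all higher, and the median difference was 0.344 log2, with 0.33 for SR3335 and 0.366 for SR1078. Pfkl, the liver-type phosphofructokinase at the committed step of glycolysis, had log2 signals of 11.40 and 11.39 with vehicle, 12.35 and 12.27 with SR3335, and 12.34 and 12.30 with SR1078. Its vehicle arrays were nearly equal and all compound arrays lay above them, a rise of 0.92 ± 0.06 (1.89-fold; adjusted p = 0.0144). A second, dimmer Pfkl probe rose by 0.74. Slc16a3, the lactate exporter MCT4, gave 6.01 and 6.14 with vehicle, 7.13 and 6.91 with SR3335, and 7.18 and 6.87 with SR1078, a rise of 0.95 ± 0.12 (adjusted p = 0.0333). Its second probe, detected on 3 arrays, differed by -0.13 and did not pass, so the 2 probes disagree.

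Tpi1, triose phosphate isomerase, had log2 signals of 13.82 and 13.80 with vehicle, 14.41 and 14.42 with SR3335, and 14.44 and 14.46 with SR1078. The rise of 0.62 ± 0.06 (adjusted p = 0.0233) was small beside that of Mgarp but larger than the difference within any pair. Slc2a1, the glucose transporter GLUT1, gave 12.34 and 12.34 with vehicle, 12.93 and 13.06 with SR3335, and 12.83 and 12.83 with SR1078, a rise of 0.57 ± 0.07 (adjusted p = 0.0307). Pgam1, phosphoglycerate mutase, rose by 0.50 (adjusted p = 0.0424; 0.53 with SR3335 and 0.46 with SR1078) and completed the 5, named after its value was seen. Gapdh at 0.37, Ldha at 0.32, Pkm at 0.23 and Aldoa at 0.22 were separated above vehicle but did not pass. Pfkfb4 was the sole member with a negative difference, -0.16, and its arrays overlapped.

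Promoters of the 3 genes named with the rule are shown with those of Nuak1 and Cela1, the 2 genes with the largest falls, because the core letters bound by HIF and the half-site bound by RORs can be looked for in them. Each holds 250 bases before and 50 after a gene start, from RefSeq on GRCm38.p6, written 5′ to 3′ in the direction of the gene. Capitals mark ACGTG or GCGTG and AGGTCA, on either strand, so that CACGT and CACGC are those cores on the opposite strand. For Ak4 the first of 4 starts is shown, which holds no AGGTCA.
Mgarp, chr3:51396498-51396797, minus strand: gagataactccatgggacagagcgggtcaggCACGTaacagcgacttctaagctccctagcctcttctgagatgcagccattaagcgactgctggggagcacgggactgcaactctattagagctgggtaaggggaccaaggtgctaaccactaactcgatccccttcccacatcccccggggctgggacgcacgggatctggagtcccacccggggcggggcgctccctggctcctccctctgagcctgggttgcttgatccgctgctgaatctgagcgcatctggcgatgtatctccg
Ak4, chr4:101419039-101419338, plus strand: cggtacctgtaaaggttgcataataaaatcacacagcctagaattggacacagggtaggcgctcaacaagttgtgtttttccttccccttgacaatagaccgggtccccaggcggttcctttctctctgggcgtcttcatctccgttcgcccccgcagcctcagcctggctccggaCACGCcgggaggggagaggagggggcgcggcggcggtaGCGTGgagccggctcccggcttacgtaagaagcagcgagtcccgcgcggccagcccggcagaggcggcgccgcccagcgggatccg
Pfkl, chr10:78009758-78010057, minus strand: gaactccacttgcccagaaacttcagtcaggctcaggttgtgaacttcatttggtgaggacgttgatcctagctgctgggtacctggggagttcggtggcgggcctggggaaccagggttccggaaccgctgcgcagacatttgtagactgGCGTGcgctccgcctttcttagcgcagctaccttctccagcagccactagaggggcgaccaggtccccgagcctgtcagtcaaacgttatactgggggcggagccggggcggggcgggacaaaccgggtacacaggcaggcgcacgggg
Nuak1, chr10:84440619-84440918, minus strand: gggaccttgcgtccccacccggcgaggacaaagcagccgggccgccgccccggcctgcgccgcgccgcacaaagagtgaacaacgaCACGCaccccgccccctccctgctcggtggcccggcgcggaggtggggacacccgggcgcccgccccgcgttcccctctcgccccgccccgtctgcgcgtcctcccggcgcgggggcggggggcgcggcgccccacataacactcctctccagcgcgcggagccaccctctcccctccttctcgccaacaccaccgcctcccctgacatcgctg
Cela1, chr15:100687871-100688170, minus strand: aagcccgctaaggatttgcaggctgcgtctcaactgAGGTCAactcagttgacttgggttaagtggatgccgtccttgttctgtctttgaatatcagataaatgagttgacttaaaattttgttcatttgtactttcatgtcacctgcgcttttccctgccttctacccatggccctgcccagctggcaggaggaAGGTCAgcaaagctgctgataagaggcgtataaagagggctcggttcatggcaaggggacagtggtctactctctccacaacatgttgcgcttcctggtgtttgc
The Mgarp promoter held 1 core, 219 bases before the start, and Ak4 held 2, at 74 and 36 bases before it. Pfkl held 1 core at 99 bases before the start and Nuak1 held 1 at 164. The Cela1 promoter held no core and 2 AGGTCA half-sites, 214 and 55 bases before the start. Mgl2 had the next largest fall, and its promoter, not printed here, held no core and no AGGTCA. Many genes have several starts, so the counts by gene are given at the first listed start, where 43.8% of 27025 genes held ACGTG or GCGTG and 16% held AGGTCA. Of the 12 genes with the largest rises, 11 had a promoter in the table, of which 8 held a core and 1 held AGGTCA. For the 12 largest falls, again with 11 in the table, the counts were 2 and 4. With a match at any start of a gene the counts were 9 and 2 for the rises and 2 and 4 for the falls, and the shares of all genes 46.7% and 18.1%. The matches are descriptions of letters and do not show binding.

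Beyond the hypoxia and glycolysis lists, the largest rises came from genes of varied function. Adh7, an alcohol dehydrogenase that oxidises retinol, had log2 signals of 9.88 and 9.96 with vehicle, 10.75 and 10.72 with SR3335, and 11.31 and 11.46 with SR1078. It rose by 1.14 ± 0.07 (2.2-fold; adjusted p = 0.0144), by 0.82 with SR3335 and 1.47 with SR1078. Ackr2, a receptor that scavenges inflammatory CC chemokines, gave 10.19 and 10.04 with vehicle, 11.29 and 11.23 with SR3335, and 11.00 and 10.93 with SR1078, a rise of 1.00 ± 0.07 (adjusted p = 0.0144). Niban2 rose by 0.92 ± 0.08 (adjusted p = 0.0223), from 12.38 and 12.32 to 13.27 and 13.19 with SR3335 and 13.42 and 13.22 with SR1078. For Niban2 the authors' deposited log2 values differ from quantile normalization of the signals by more than 0.05, and they give 0.80.

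For other named rises the mean of both compounds describes neither of them, and their values are given side by side. Calb2, the calcium-binding protein calretinin, gave 7.70 and 7.69 with vehicle, 9.48 and 9.50 with SR3335, and 8.06 and 8.00 with SR1078. The Calb2 differences were 1.80 ± 0.07 (adjusted p = 0.00408) for SR3335 and 0.33 ± 0.07 (adjusted p = 0.0846) for SR1078, and a second probe did not pass for both together. Retnla, a secreted protein typical of IL-4-activated macrophages, gave 9.81 and 9.75 with vehicle, 9.97 and 10.09 with SR3335, and 11.37 and 11.62 with SR1078. Its differences were 0.25 ± 0.11 (adjusted p = 0.221) and 1.72 ± 0.11 (adjusted p = 0.0139). Tarm1, an activating receptor of myeloid cells that was detected on 1 of the 2 vehicle arrays, differed by 1.41 with SR3335 and 0.56 with SR1078. Separation of all 4 arrays sets no minimum on either difference.

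**Figure D2:**
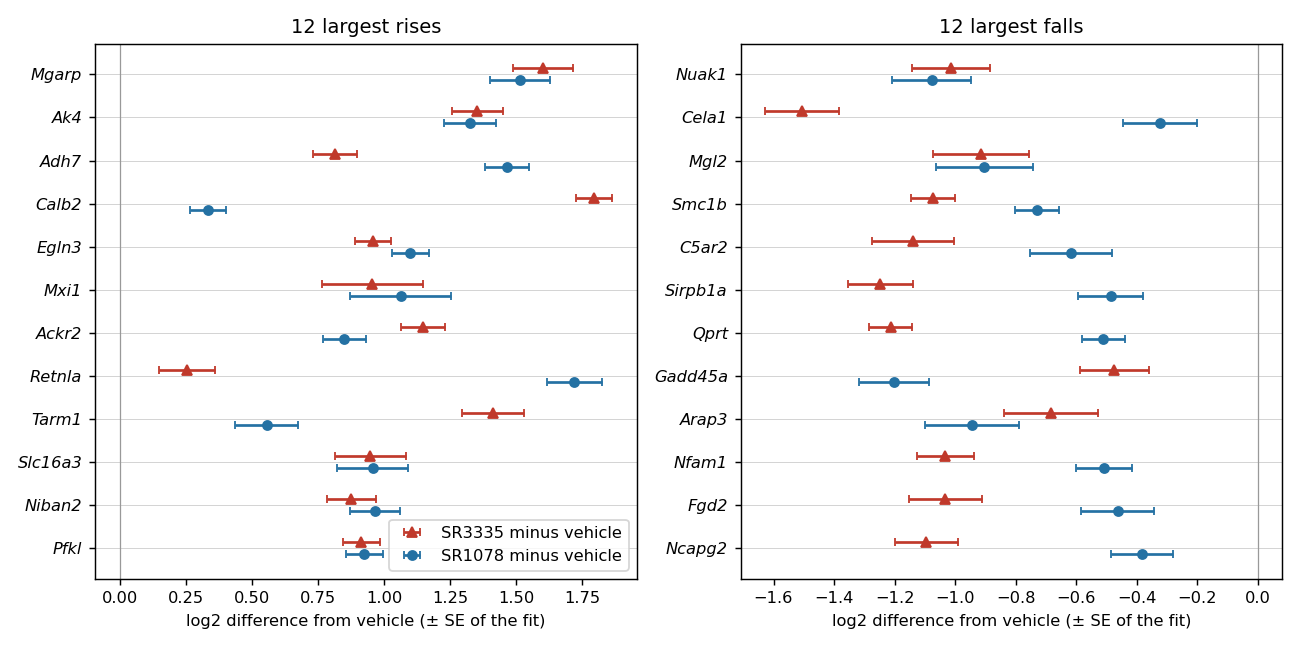
Log2 difference from vehicle with its standard error for SR3335 (triangles) and SR1078 (circles), for the 12 named genes with the largest rises (left) and the 12 with the largest falls (right). All differences lie on 1 side of 0 in each panel, from 0.25 for Retnla with SR3335 to 1.80 for Calb2 with SR3335 on the left. The compounds share their vehicle arrays and their labelled doses differ.

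The largest falls were smaller than the largest rises and came from genes of varied function. Nuak1, a kinase related to AMPK, gave log2 signals of 9.47 and 9.24 with vehicle, 8.22 and 8.46 with SR3335, and 8.19 and 8.37 with SR1078. It fell by 1.05 ± 0.11 log2 (adjusted p = 0.029), but the authors' deposited values depart from the signals for this probe and give -0.56. Mgl2, a galactose-binding lectin of macrophages and dendritic cells, gave 7.07 and 6.73 with vehicle, 6.13 and 5.83 with SR3335, and 6.09 and 5.89 with SR1078. Mgl2 fell by 0.91 ± 0.14 (adjusted p = 0.0454), with differences of -0.92 and -0.90 for SR3335 and SR1078. Smc1b, a meiotic cohesin subunit, fell by 0.90 ± 0.06 (adjusted p = 0.0144), from 9.25 and 9.28 to 8.15 and 8.23 with SR3335 and 8.49 and 8.58 with SR1078.

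Cela1, an elastase, had signals of 7.77 and 7.74 with vehicle, 6.22 and 6.27 with SR3335, and 7.25 and 7.60 with SR1078. The differences were -1.50 ± 0.12 (adjusted p = 0.009) and -0.32 ± 0.12 (adjusted p = 0.221) in turn, and the nearest SR1078 array lay 0.14 below the vehicle arrays. With SR3335 and SR1078 in turn, Sirpb1a, a signal regulatory protein, differed by -1.25 and -0.49, Nfam1, an ITAM-bearing receptor, by -1.03 and -0.51, and Fgd2, an exchange factor for CDC42, by -1.03 and -0.46. C5ar2, the second receptor for complement C5a, and Qprt, an enzyme of NAD synthesis, were not well above background on either SR3335 array. They were at least 2.01-fold and 2.19-fold lower with SR3335 (adjusted p = 0.0169 and 0.00865), and differed by -0.62 and -0.51 with SR1078. Ncapg2, a condensin II subunit, differed by -1.09 and -0.38.

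Gadd45a, a growth arrest and DNA damage gene, fell by 0.84 ± 0.10 (adjusted p = 0.0307), with -0.47 for SR3335 and -1.20 for SR1078, while its second probe differed by -0.28 and did not pass. Arap3, a GTPase-activating protein for ARF, fell by 0.81 ± 0.13 (adjusted p = 0.0488), with -0.68 and -0.94. For both genes the authors' deposited values depart from the signals, and they give -1.04 and -0.60.

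Lists for macrophage biology had smaller medians, and most of their members did not pass the test. The list counts from here on stand beside 13.2% of all genes above vehicle and 13.6% below. Cell cycle genes were separated below vehicle for 11 of 22 measured members and above for 1, with a median difference of -0.19 log2. Only Birc5, the mitotic protein survivin, fell past the threshold, by 0.63 ± 0.08 (adjusted p = 0.0351), at log2 signals of 6.52 and 6.46 with vehicle, 5.77 and 5.83 with SR3335, and 5.82 and 6.02 with SR1078. Cdkn1a, the cell cycle inhibitor p21, was the 1 member above vehicle, and it rose by 0.61 ± 0.09 (adjusted p = 0.0435) from 12.73 and 12.79 to 13.37 and 13.31 with SR3335 and 13.27 and 13.52 with SR1078. The replication helicase genes Mcm2, Mcm4, Mcm5 and Mcm7 lay below vehicle, at -0.31, -0.24, -0.35 and -0.38, and none of them passed for both compounds together. Mcm3 and Mcm6, at -0.11 and -0.19, overlapped vehicle. Other members went different ways: Ccne1 differed by 0.65 with SR3335 (adjusted p = 0.0199) and -0.28 with SR1078, and Pcna by 0.02 and 0.57 (adjusted p = 0.0497 for SR1078). Cdkn1b, also a cell cycle inhibitor, lay below vehicle at -0.27.

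Kupffer cell identity genes were separated below vehicle for 10 of 19 members and above for 1, with a median of -0.143, -0.209 for SR3335 and -0.086 for SR1078. Timd4, a receptor for phosphatidylserine, was at -0.23, Folr2 at -0.24, Adgre1 at -0.22, Vsig4 at -0.19 and Clec4f at -0.08, and none passed for both compounds together. The single call for both compounds together went the other way: Cdh5, which mouse Kupffer cells share with endothelium, rose by 0.45 ± 0.07 (adjusted p = 0.0435), from 11.49 and 11.43 to 11.73 and 11.82 with SR3335 and 12.01 and 12.09 with SR1078. With SR3335 alone 0 identity genes passed higher and 1 lower, and with SR1078 alone 1 higher and 0 lower. The summed linear signal of the 19 genes was 209628 to 215677 in the vehicle arrays, 193024 to 193801 with SR3335 and 204356 to 216419 with SR1078, so the SR1078 arrays overlapped vehicle.

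**Figure D3:**
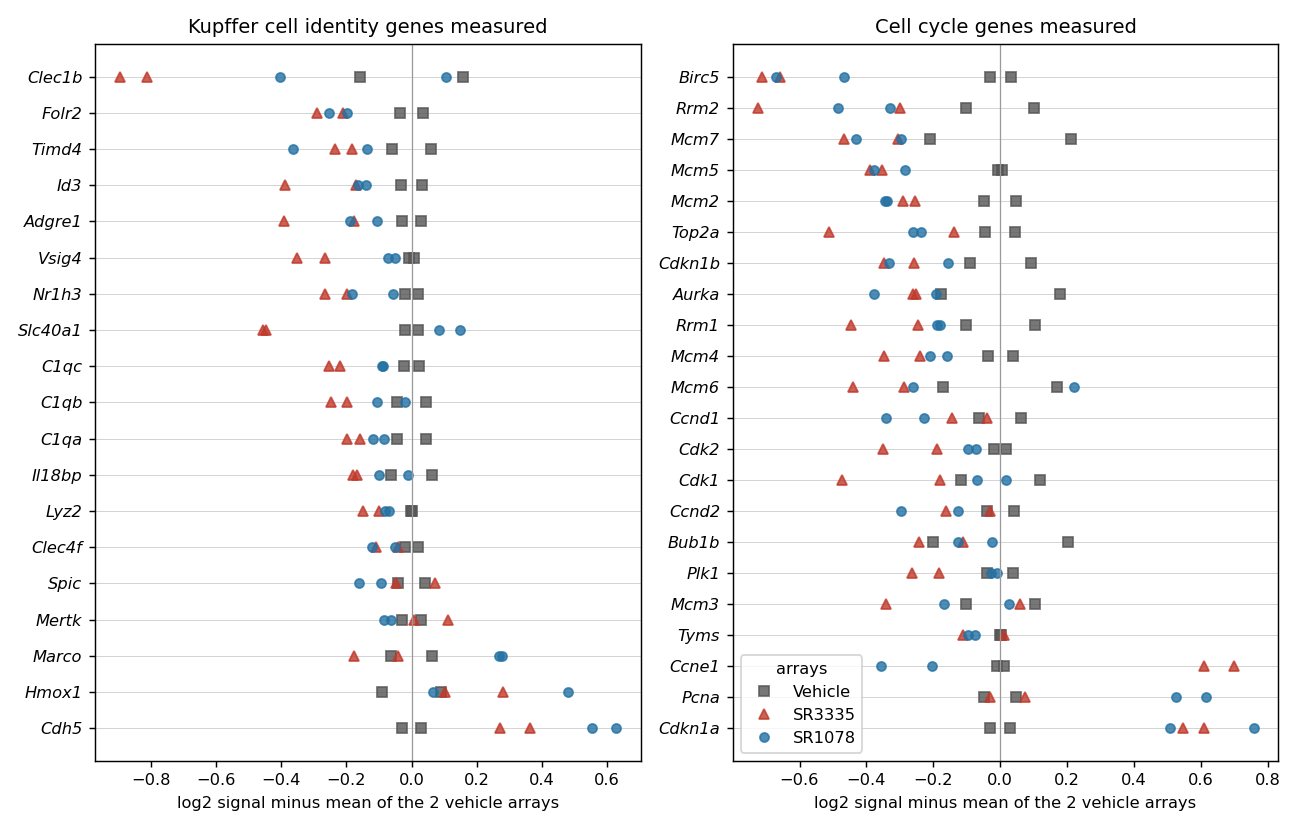
Log2 signal of each array minus the mean of the 2 vehicle arrays for the 19 Kupffer cell identity genes (left) and 22 cell cycle genes (right) measured, with squares for vehicle, triangles for SR3335 and circles for SR1078. For 10 and 11 genes the 4 compound arrays lie to the left of both vehicle arrays, and most shifts are under 0.5 log2.

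Markers of other liver cells were read beside these lists, and their part in the results above, the hypoxia and glycolysis rises included, was not tested. Hepatocyte markers were separated above vehicle for 6 of 14 members and below for 0, with a median of 0.267, Serpina1a at 0.24, and 0 calls by limma (3 at an unadjusted p under 0.05). Their summed signal was 20039 to 21435 with vehicle, 21842 to 28420 with SR3335 and 22852 to 26145 with SR1078, while Alb, Cps1, Fabp1, Fgb, Pck1 and Tat were not detected. Stellate cell and fibroblast markers summed to 5711 to 5944 with vehicle, 7358 to 8266 with SR3335 and 7372 to 7623 with SR1078. Of their 7 measured members 3 lay above vehicle and 1 below, and 1, Timp1, passed for both compounds together. Timp1, an inhibitor of metalloproteinases that macrophages also make, differed by 1.10 with SR3335 (adjusted p = 0.0088) and 0.28 with SR1078 (adjusted p = 0.166). The share of each member in the summed signal was not worked out. Of that list Col1a1, Col1a2, Col3a1, Lrat, Pdgfra and Pdgfrb were not detected. Among 19 endothelial markers 6 lay above and 3 below, with a median of -0.007. For both compounds together 3 passed higher, Cdh5, Egfl7 and Ehd3, and 1 passed lower. With SR3335 1 passed higher and 3 lower, and with SR1078 3 higher and 1 lower. Egfl7 differed by 0.19 with SR3335 (adjusted p = 0.228) and 0.98 with SR1078 (adjusted p = 0.0284), and its second probe, at 0.07 for both, did not pass. Ehd3 differed by 0.80 (adjusted p = 0.0237) and 0.51 (adjusted p = 0.0913). The endothelial sum was 24395 to 24960 with vehicle, 24103 to 24932 with SR3335 and 26954 to 27538 with SR1078. Neutrophil markers summed to 5829 to 5870, 6144 to 6196 and 5431 to 5772 in the same order, with S100a8 at 0.54 and 0.32 for SR3335 and SR1078 and Cxcr2, Mmp8, Mpo, Ngp and Retnlg not detected. T and NK cell markers summed to 6313 to 6690, 6081 to 6131 and 6535 to 6620, with Nkg7 at -0.29. B cell markers summed to 1387 to 1425, 1140 to 1262 and 1748 to 1805, and Cd79a differed by 0.07 and 0.93 with overlapping arrays. Markers of dendritic cells and monocytes summed to 37334 to 41434, 38809 to 40221 and 34017 to 36979, with Zbtb46 at 0.64 and 0.12 and Ccr2, Flt3 and Itgax among 7 not detected.

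NRF2 targets, which encode antioxidant and glutathione enzymes, were above vehicle for 7 of 13 members and below for 0. Srxn1, sulfiredoxin, rose by 0.55 ± 0.08 (adjusted p = 0.0391), by 0.50 with SR3335 and 0.60 with SR1078, and all 3 of its probes passed. Gclm, the modifier subunit of glutamate-cysteine ligase, rose by 0.46 ± 0.08 (adjusted p = 0.0492), by 0.41 and 0.50. Txnrd1 at 0.49, Slc7a11 at 0.38, Nqo1 at 0.27, Prdx1 at 0.12 and Sqstm1 at 0.11 were separated without passing.

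Several genes of sterol and fat metabolism fell as the mean of both compounds, but limma called each of the 4 named here for 1 compound only. Of 14 cholesterol synthesis genes 5 lay below vehicle and 0 above, and Lss, lanosterol synthase, passed with a fall of 0.47 ± 0.07 (adjusted p = 0.0461). Lss differed by -0.32 with SR3335 (adjusted p = 0.0973) and -0.62 with SR1078 (adjusted p = 0.0484). LXR targets lay below for 4 of 11. Lpl, lipoprotein lipase, fell by 0.46 ± 0.06 (adjusted p = 0.036), with -0.82 for SR3335 (adjusted p = 0.009) and -0.11 for SR1078 (adjusted p = 0.436). Pparg, the nuclear receptor of fat storage, fell by 0.68 ± 0.07 (adjusted p = 0.0259), from 9.34 and 9.30 to 8.15 and 8.28 with SR3335 and 9.05 and 9.06 with SR1078. Its differences were -1.10 (adjusted p = 0.00865) and -0.27 (adjusted p = 0.15) in turn. Angptl4, an inhibitor of lipoprotein lipase, fell by 0.48 ± 0.07 (adjusted p = 0.0429), from 9.08 and 9.07 to 8.51 and 8.61 with SR3335 and 8.69 and 8.57 with SR1078. The Angptl4 differences were closer to each other, -0.52 (adjusted p = 0.0297) and -0.45 (adjusted p = 0.0694).

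Inflammatory genes were mixed. Of 21 M1 genes 5 lay above vehicle and 0 below, and the list's median was 0.434 for SR3335 and -0.057 for SR1078. Limma called 10 of the 21 higher and 0 lower with SR3335, and 0 in either direction with SR1078. Of all 8959 genes it called 275 higher and 238 lower with SR3335, and 85 and 22 with SR1078. Il12a met the detection filter through the SR3335 arrays alone, so a call for it there would be no support. Ptgs2, cyclooxygenase 2, rose by 0.72 ± 0.11 (adjusted p = 0.0443), with signals of 5.91 and 6.00 with vehicle, 6.89 and 6.54 with SR3335, and 6.65 and 6.63 with SR1078. The Ptgs2 differences were 0.77 with SR3335 (adjusted p = 0.0328) and 0.68 with SR1078 (adjusted p = 0.0704). Saa3, an acute phase protein, rose by 0.66 ± 0.06 (adjusted p = 0.0257), by 0.97 with SR3335 (adjusted p = 0.00865) and 0.34 with SR1078 (adjusted p = 0.0884). Tnf, Il1a and Il1b overlapped vehicle. Chemokines were separated above for 4 of 15 and below for 4: Cxcl1, Cxcl9 and Cxcl2 rose as the mean of both compounds and Ccl6 fell, but limma called these 4 for SR3335 and not for SR1078. Cxcl1 differed by 1.17 with SR3335 (adjusted p = 0.0232) and 0.51 with SR1078 (adjusted p = 0.169), and Cxcl9 by 0.68 (adjusted p = 0.0156) and 0.14 (adjusted p = 0.349). Cxcl2 differed by 0.72 (adjusted p = 0.0121) and 0.07 (adjusted p = 0.63), and Ccl6 by -0.95 (adjusted p = 0.009) and -0.14 (adjusted p = 0.391). The difference between the compounds was not tested.

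Of 19 M2 genes 6 lay above vehicle and 3 below. Irf4, a transcription factor of alternative activation, gave 7.54 and 7.61 with vehicle, 8.00 and 8.11 with SR3335, and 8.48 and 8.63 with SR1078, a rise of 0.73 ± 0.08 (adjusted p = 0.0281). Ccl24, an eosinophil chemokine, differed by 0.40 with SR3335 (adjusted p = 0.0773) and 0.92 with SR1078 (adjusted p = 0.0322). Mrc1, the mannose receptor, named after its values were seen, differed by 0.11 (adjusted p = 0.533) and 0.92 (adjusted p = 0.0322). For both the authors' deposited values depart from the signals and give 0.76 and 0.72 as the mean of both compounds. Mgl2, on the same list, fell as given above. The direction within the list was therefore not uniform.

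Rora, the gene of ROR-alpha, gave 7.28 and 7.08 with vehicle, 5.23 and 5.64 with SR3335, and 7.81 and 7.59 with SR1078. Its difference was -1.74 ± 0.16 (adjusted p = 0.0117) for SR3335 and 0.52 ± 0.16 (adjusted p = 0.166) for SR1078, so Rora was not among the separated probes. The authors' deposited values depart from the signals for Rora and give -0.09 for both compounds together. Klf4, a macrophage transcription factor, had 3 probes, at 0.25, -0.20 and -0.15 for both compounds together, none of which passed. With SR3335 and SR1078 in turn they differed by 0.19 and 0.31, by -0.99 and 0.60, and by -1.41 and 1.11. For 2 probes the mean thus hides opposite directions. The -0.99 (adjusted p = 0.0156), the -1.41 (adjusted p = 0.0123) and the 1.11 (adjusted p = 0.0406) passed in limma. The probes disagree for SR3335, and the authors' deposited values depart from the signals for all 3. Of 14 ROR receptors and targets 4 lay above vehicle and 1, Lpl, below. Clock genes lay above for 5 of 14 with 0 calls by limma (6 at an unadjusted p under 0.05), and Dbp, a clock output factor, differed by -0.05 with SR3335 and -0.82 with SR1078.

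For the other lists, 6 of 24 interferon-stimulated genes lay below vehicle and 1 above, with Usp18 at -0.25, and 5 of 22 respiratory chain genes below and 1 above, with Atp5a1 at 0.22. NF-kB feedback genes lay below for 3 of 16, and Nfkbiz differed by -0.27 with SR3335 (adjusted p = 0.197) and -1.10 with SR1078 (adjusted p = 0.0322). The authors' deposited values depart for Nfkbiz and give -0.58 as the mean of both. Stress response genes lay above for 4 of 22 and below for 2, lysosomal genes below for 2 of 18, with Lipa at -0.44, and MHC class II genes above for 2 of 10 and below for 1, with H2-Oa at -0.39. Immediate early genes lay above for 4 of 18 and below for 2, and Fosl1, a subunit of AP-1, rose by 0.55 (adjusted p = 0.0477), by 0.64 with SR3335 and 0.46 with SR1078. Fatty acid oxidation and PPAR genes lay below for 2 of 10. Of all genes 13.2% lay above and 13.6% below. The shares for stress response (18.2% above, 9.09% below), lysosomal (11.1% below) and MHC class II genes (20% above, 10% below) were near these.

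**Figure D4:**
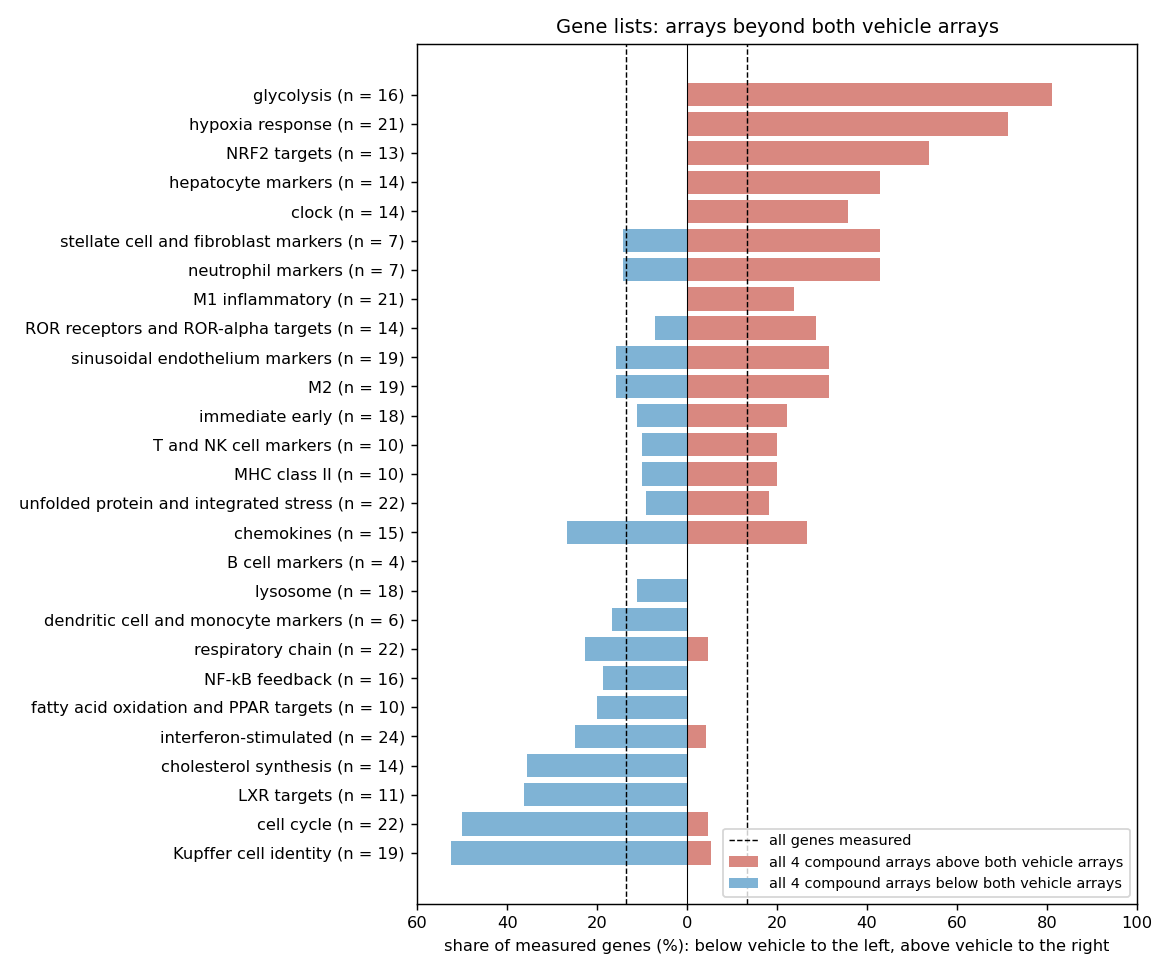
Share of measured genes of each of 27 lists for which all 4 compound arrays lay above (right) or below (left) both vehicle arrays, with dashed lines at the shares of all genes, 13.2% and 13.6%. Glycolysis at 81.2% and hypoxia response at 71.4% extend farthest to the right, and Kupffer cell identity at 52.6% and cell cycle at 50% farthest to the left. Aldoc (glycolysis) and Mxi1 (hypoxia response) are counted, although they were detected on compound arrays alone.

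The M0, LPS and IL-4 arrays share no control with the compounds and were not used to choose the probes. In them LPS, which drives inflammatory activation, gave 1177 higher (9.51%) and 1301 lower probes (10.5%) of 12371 against M0, and IL-4 gave 425 higher (3.44%) and 466 lower (3.77%) (limma, adjusted p under 0.05). Of the 193 probes that passed and lay above vehicle, 169 were measured there, and 54 (32%) were higher with LPS and 12 lower. With IL-4 27 of them (16%) were higher and 6 lower. Of the 116 that passed and lay below vehicle, 113 were measured, of which 38 (33.6%) were lower and 11 higher with LPS, and 20 lower and 13 higher with IL-4. Their median difference with LPS was 0.276 log2 for the first set and -0.289 for the second, against -0.012 for all probes.

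Glycolysis genes rose with LPS for 10 of 14 measured and fell for 1, and with IL-4 for 2 and 0. Hypoxia response genes rose with LPS for 8 of 18 and fell for 1, and with IL-4 for 1 and fell for 1. Pfkl rose with LPS by 1.27 ± 0.09 (adjusted p = 0.00146) and differed by 0.04 ± 0.09 with IL-4 (adjusted p = 0.801). Tpi1 rose by 0.85 and Slc2a1 by 0.94 with LPS. Ak4, not well above background in M0, exceeded it at least 1.07-fold under LPS. Its probe met the detection filter through the LPS arrays alone, so it had to differ, and it is 1 of the 8 hypoxia response genes, as Pfkfb3 is 1 of the 10 glycolysis genes. Vegfa fell by 0.78 with LPS (adjusted p = 0.016) and P4ha1 fell by 0.64 with IL-4 (adjusted p = 0.0342). Mgarp and Egln3, among the largest rises with the compounds, were not measured on these arrays, as their probes were detected on fewer than 2 of the 6.

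Among other named genes, Calb2 and Tarm1 were not well above background in M0. With LPS Calb2 was at least 103-fold higher and Tarm1 at least 4.51-fold higher. Both met the detection filter through treated arrays alone, so no p is given. Retnla rose with IL-4 by 6.80 ± 0.28 (adjusted p = 0.000786) and Mgl2 by 2.40 ± 0.20 (adjusted p = 0.00619), so with IL-4 both rose, whereas with the compounds Mgl2 fell. Pparg fell with LPS by 2.62 ± 0.12 (adjusted p = 0.000505).

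**Figure D5:**
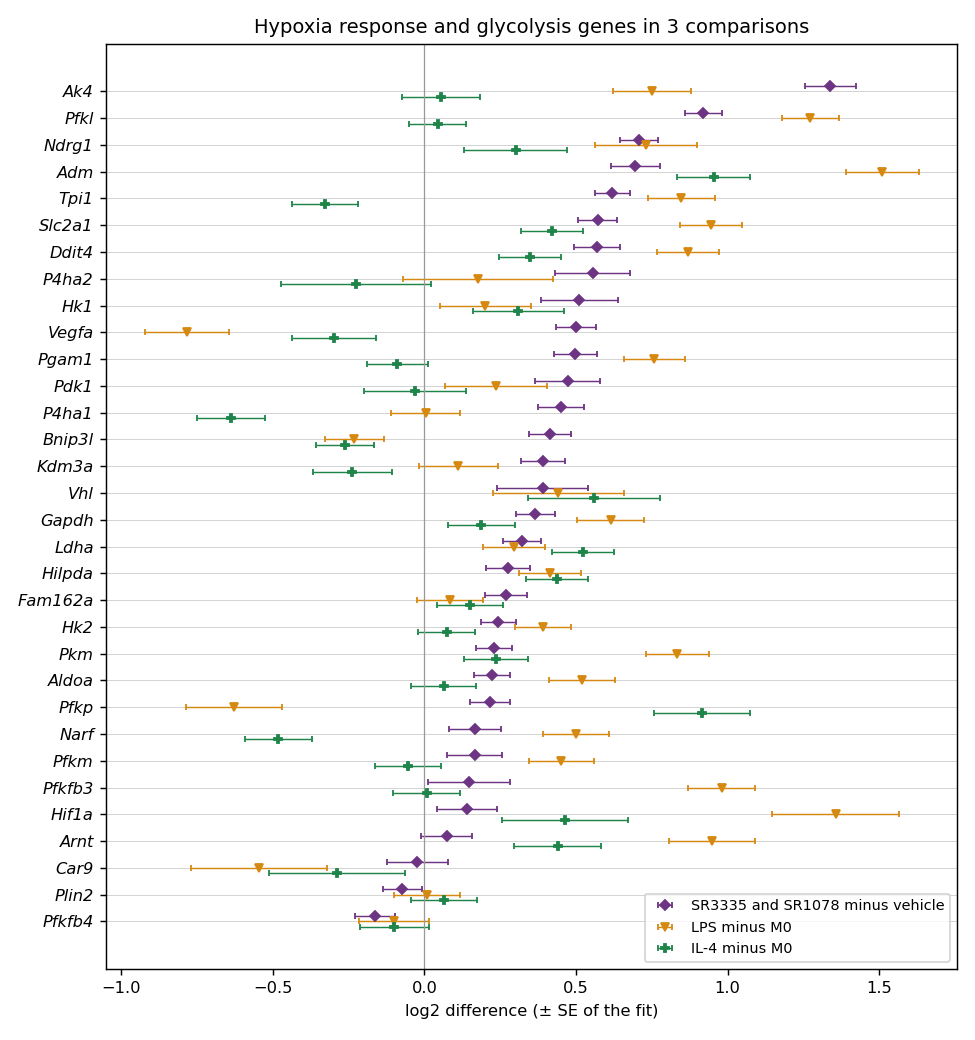
Log2 difference with its standard error for hypoxia response and glycolysis genes measured in both array sets: both compounds minus vehicle (diamonds), LPS minus M0 (triangles) and IL-4 minus M0 (crosses). Pfkl, Tpi1, Slc2a1 and Ak4 lie above 0 with the compounds and with LPS, and Vegfa and Bnip3l lie above 0 with the compounds alone.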

How the data were processed

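RNA of cultured Kupffer cells was measured on 12 Illumina bead arrays, of which 6 enter the main comparison. Per the file headers, the authors deposited bead signals (intensity, not normalized) and a detection p-value for each of 25697 probes, made with GenomeStudio 2011.1 per the submitters' processing notes. The authors also deposited processed log2 values. Set against the signals, these equal quantile normalization within 2 sets of 6 arrays to within 0.011 log2, except at 30 probes of the vehicle and compound set. The signals were background-corrected with normexp (limma 3.58.1, R 4.3.3; control bead levels estimated through the detection p-value, offset 16), quantile-normalized over the 6 arrays and taken as log2. The filter required detection (p under 0.05) on 2 or more of the 6 arrays.

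A model with 1 mean per group (3 residual degrees of freedom) gave moderated tests with Benjamini-Hochberg adjustment over all probes kept. The M0, LPS and IL-4 arrays were treated in the same way on their own. For a group undetected on both arrays the fold is a lower bound against the dimmest detected signal. Gene symbols came from GEO's platform annotation, updated by gene identifier to RefSeq for 23962 probes, and 1719 probes have none. A gene is represented by its brightest probe.

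Named genes were the 12 largest rises and 12 largest falls among genes that passed and were separated, Mgarp, Ak4, Pfkl, Rora and Klf4, and up to 4 members of each of 27 lists. Of 13 other probes of named genes that passed, 8 also passed with the same sign, 4 missed the threshold and 1 missed it with the opposite sign. The genes, lists and rule were chosen with earlier results of these data known. Alternatives changed the background correction, offset, normalization, filter, variance model and arrays, or used the authors' values. The fit was tested on simulated data for both compounds minus vehicle over 12918 probes: 48 of 67 probes shifted by 0.5 log2 were recovered. At a shift of 1 these were 66 of 67, and at 2 all 66. False calls numbered 11 among 12718 probes without a shift. The simulated noise was independent between arrays and used the fit's own variances. It held no shift shared by the vehicle arrays, so it cannot show how such a shift would affect the calls. Figures were drawn with matplotlib 3.10.9.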

Additional observations from a re-analysis of the deposited data

How the results depend on the processing

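None of 62 named genes changed sign in any alternative. Most were named because all 4 compound arrays lay beyond both vehicle arrays. For these, leaving out an array could not reverse the sign, so the result was largely fixed in advance. For both compounds minus vehicle, the 204 higher and 123 lower probes became 532 and 461 without background correction, 357 and 268 with an offset of 50, 537 and 469 with the authors' values, 73 and 34 without a filter on dim probes, 320 and 231 for probes detected on all 6 arrays, 717 and 687 with a trend in the variance, and 11 and 2 with the compounds as 1 group of 4. In the same order, SR3335 minus vehicle (688 probes) gave 1353, 1375, 394 and 1740 for no background correction, the authors' values, no filter and the trend. SR1078 minus vehicle (136) gave 795, 433, 804, 41, 369 and 1277 for the first 6 settings, 222 with 1 probe per gene and 64 without the 30 probes where the authors' values depart. Without the filter 2522 probes lay above and 2656 below vehicle.

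With an array left out, its partner is taken to scatter as the remaining groups do. Calls for both compounds then ranged from 0 to 0 in each direction, for SR3335 from 0 to 208 and for SR1078 from 0 to 0 (1858 to 2633 at an unadjusted p under 0.05, limma). Probes above vehicle ranged from 1981 to 2861 and below from 2164 to 3092, the highest without vehicle replicate 2. Hypoxia genes above vehicle ranged from 15 to 17, glycolysis from 13 to 15, Kupffer cell identity genes below from 10 to 12 and cell cycle genes from 11 to 16. A probe separated on all arrays stays separated when an array is left out, so the counts of probes could not fall. The gene counts could fall only where another probe came to represent a gene, so these ranges are no test of stability. LPS calls (2478) were 3991 in a fit of all 12 arrays and 683 to 872 with an array left out. IL-4 calls (891) were 2551, and 18 to 1242. With the replicate number as a block, limma called 0 higher and 0 lower probes for both compounds (2616 at an unadjusted p under 0.05), 225 for SR3335, 0 for SR1078 (2528 unadjusted) and 487 for IL-4. The samples share only a number: the correlations between same-numbered deviations were -0.009, -0.013 and 0.043. Over all settings, left-out arrays included, the Ak4 difference ranged from 0.749 to 1.39, that of Mgarp from 1.12 to 1.72 and that of Pfkl from 0.893 to 0.939. Sizes of dimmer genes were smaller with the authors' values: 1.12 for Mgarp, 0.75 for Ak4, 0.73 for Egln3, 0.49 for Slc16a3 and 0.46 for Tarm1. The brighter Adh7 gave 1.07 and Pfkl 0.90, so folds and the order of the largest rises depend on the processing.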

Other observations

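Levels of some hypoxia and glycolysis genes, chosen after their values were seen, are given for the control groups in a normalization of all 12 arrays together. Mgarp was not above background on either M0 array, where its measured values of 4.75 and 4.70 log2 are only a bound, and was at 6.80 and 7.13 in the vehicle arrays. Ndrg1 was at 7.55 and 7.51 against 9.63 and 9.71. Pfkl was at 10.14 and 10.14 in M0, 11.44 and 11.44 with vehicle, and 12.30 to 12.37 with the compounds. Tpi1 was at 12.64 and 12.56 in M0 against 13.76 and 13.75 with vehicle. Mxi1 lay the other way, at 6.12 and 5.32 in M0, where 1 array was above background, against 5.40 and 5.09 with vehicle, where neither was. The array set, the culture and DMSO cannot be told apart in these differences, and no test was made. Retnla was likewise higher in vehicle, at 9.85 and 9.78, than in M0, at 6.16 and 6.50.

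The 30 probes at which the authors' log2 values depart from the deposited signals, by up to 2.32 log2, all lie in the vehicle and compound set, and the M0, LPS and IL-4 set has 0. All 3 probes of Klf4 are among them, with Rora, Nuak1, Gadd45a, Niban2, Arap3, Nfkbiz, Ccl24 and Dbp of the named genes and 2 other probes of Cdkn1a.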
